A study of Mus musculus with 16 samples.

Results

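The 45 genes described here are mouse genes of cell division, taken as a named list by their roles, at a time when earlier results of these data were known. They were 45 of the 31274 genes in the expression table, and all 45 were among the 15988 genes tested, each with a mean above 1 FPKM in at least 1 group. FPKM counts sequenced fragments relative to gene length and library size, so levels can be compared between genes per length. The list runs from the factors that license and fire replication origins, through the enzymes of DNA synthesis, to the kinases, checkpoint proteins, centromere proteins and spindle motors of mitosis.

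RNA-seq was performed on seminal vesicles (SV) of C57BL/6 mice at week 5 in 4 groups of 4 samples each. Male pups received diethylstilboestrol (DES), a synthetic oestrogen, in corn oil under the skin at a daily dose of 2 µg per pup from day 1 to day 5 of life, or corn oil alone. WT-veh and WT-DES were wild type, and αERKO-veh and αERKO-DES lacked oestrogen receptor α (ERα), so the design asks how neonatal DES alters the pubertal SV and whether ERα is needed. WT mice came from purchased pregnant females and αERKO mice from heterozygous breeding, so genotype and colony cannot be told apart. Per the methods, WT-DES RNA came from 3 pools of mice, where 4 samples are labelled, and RNA of the other groups from single mice. The labels do not tie samples to animals or pools, so the 4 WT-DES samples may not all be independent, and p-values measure the spread between these samples.

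A cell prepares to copy its DNA by loading the MCM helicase on origins in G1, and E2F transcription factors switch on the genes for this step and for nucleotide supply as cells enter S phase. A later set of genes, which drive mitosis, is held down by the DREAM complex in resting and G1 cells and switched on in G2 by the MuvB complex with B-Myb and FoxM1. The SV is an androgen-dependent accessory sex gland that grows at puberty, and dividing cells in it can be epithelial, stromal, vascular or leukocytic. In bulk tissue a gene's level joins the share of dividing cells with the amount of RNA per cell, and these cannot be told apart here.

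The promoters of 6 members, chosen for their changes with DES described below, are printed. Mcm2 and Mcm3, and Rrm1 and Rrm2, are partners in one complex whose changes with DES had opposite signs. Kif23 was among the genes that rose and Cdk1 among those that did not pass the test. Each window runs from 150 bases before to 30 after the RefSeq start in GRCm38.p6, 5′ to 3′ on the gene's strand, which is minus for Mcm2, Mcm3, Kif23 and Cdk1 and plus for Rrm1 and Rrm2. Capitals mark 3 motifs on either strand: the cell cycle homology region (CHR, TTTGAA or TTCGAA), the CCAAT box (CCAAT) and E2F sites (TTTGGCGC, TTTCGCGC or TTCCCGCC). No printed match overlapped another.
Mcm2, chr6:88898751-88898930: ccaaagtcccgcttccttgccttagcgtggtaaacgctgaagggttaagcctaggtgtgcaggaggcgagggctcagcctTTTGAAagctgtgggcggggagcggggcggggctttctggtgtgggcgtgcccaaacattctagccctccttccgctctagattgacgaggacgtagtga
Mcm3, chr1:20820283-20820462: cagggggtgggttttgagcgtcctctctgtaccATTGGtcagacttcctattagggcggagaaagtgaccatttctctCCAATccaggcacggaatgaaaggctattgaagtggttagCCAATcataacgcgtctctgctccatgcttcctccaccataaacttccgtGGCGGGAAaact
Rrm1, chr7:102441545-102441724: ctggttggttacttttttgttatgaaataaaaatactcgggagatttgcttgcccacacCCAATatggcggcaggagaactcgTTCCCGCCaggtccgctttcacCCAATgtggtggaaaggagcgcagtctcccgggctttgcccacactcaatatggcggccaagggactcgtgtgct
Rrm2, chr12:24708104-24708283: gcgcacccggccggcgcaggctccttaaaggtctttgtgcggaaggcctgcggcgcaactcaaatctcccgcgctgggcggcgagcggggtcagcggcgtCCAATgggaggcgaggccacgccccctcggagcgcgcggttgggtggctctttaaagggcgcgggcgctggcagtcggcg
Kif23, chr9:61946770-61946949: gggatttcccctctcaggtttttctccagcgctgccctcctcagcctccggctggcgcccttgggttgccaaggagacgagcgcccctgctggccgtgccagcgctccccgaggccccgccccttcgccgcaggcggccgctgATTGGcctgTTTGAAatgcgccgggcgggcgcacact
Cdk1, chr10:69352883-69353062: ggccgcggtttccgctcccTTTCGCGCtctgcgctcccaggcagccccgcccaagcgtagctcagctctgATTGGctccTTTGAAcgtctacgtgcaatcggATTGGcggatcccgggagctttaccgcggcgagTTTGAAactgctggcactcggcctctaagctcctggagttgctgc

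In the full RefSeq windows, which are of equal length for every gene and reach farther on both sides of the start, available here for 38 of the 45 members, a CHR was found in 19 (50%) against 19.4% of the windows of all 27025 genes. A CCAAT box was found in 28 (73.7%) against 37.9%, and an E2F site in 8 (21.1%) against 3.03%. The CHR was most frequent among the checkpoint genes, in 5 of 6, and was found in none of the 4 genes of DNA synthesis, while E2F sites were found in 5 of the 8 licensing genes matched and in none of the 16 genes of checkpoint, chromosome and spindle roles. The partners Mcm2 and Mcm3 both held a CCAAT box in these windows, while a CHR was found in Mcm2, 70 bases before the start, and E2F sites in Mcm3, the first of them 19 bases after it. Rrm1 held an E2F site and CCAAT boxes, and Rrm2 a single CCAAT box in the printed stretch. A match is a description of letters and not of binding, and whether motifs bear on the changes with DES was not tested. Mcm4, Ccne2, Foxm1, Ccna2, Aurkb, Kif20a and Tpx2 were not matched.

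Esr1, which encodes ERα, was at 2.81 to 4.55 FPKM in WT-veh, 8.74 to 19.6 in WT-DES and 0.91 to 1.75 in both αERKO groups together, so every αERKO sample lay below every WT sample. As a group the members were moderately expressed, with a median of group means of 6.00 FPKM in WT-veh against 10.9 over all genes tested. Their spread was wide: the median SD of log2(FPKM + 1) was 0.272 in WT-veh against 0.121 over all genes, 0.275 against 0.167 in WT-DES, 0.347 against 0.150 in αERKO-veh and 0.158 against 0.139 in αERKO-DES. αERKO-veh sample 3 was the highest of its group for 45 of 45 members, against 26.4% of all genes, and the highest of all 16 samples for 25 members. WT-veh sample 4 was the highest of its group for 42 members, against 31.3% of all genes, and WT-DES sample 1 the lowest of its group for 35, against 35.6% of all genes. Markers of other cells varied between samples too. Skeletal muscle markers had a mean log2 level of 5.72 in WT-veh sample 4 against 2.03 to 3.11 in the other WT-veh samples, and of 6.55 in αERKO-veh sample 3 against 3.43 to 6.04 in the others of its group, and smooth muscle markers were at 9.16 in WT-DES sample 1 against 6.76 to 7.54 in the other WT-DES samples. Whether these bear on the members was not tested.

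**Figure D1:**
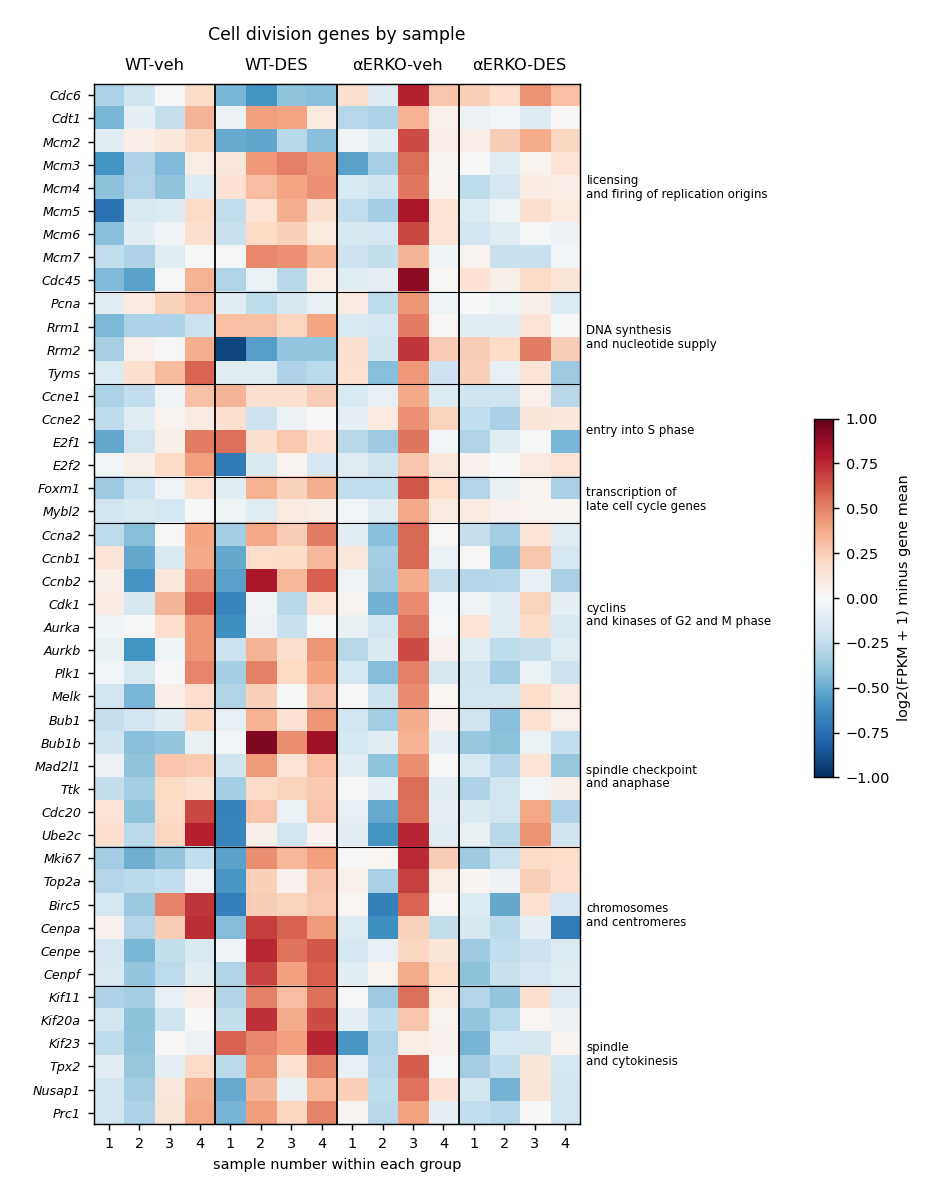
Each row is 1 of the 45 cell division genes, ordered by role, and each column 1 of the 16 samples; colour is log2(FPKM + 1) minus the gene's mean over all samples. αERKO-veh sample 3 is the highest of its group in every row, and WT-DES sample 1 is the lowest of its group for 35 genes.

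In WT, DES changed members of 5 of the 8 roles, and most members did not pass the test. A gene was called where its adjusted p in limma was at most 0.05, its ratio of mean FPKM at least 1.5 in either direction and its mean above 1 FPKM in a compared group. By this rule 11 of the 45 (24.4%) differed between WT-DES and WT-veh, 9 higher and 2 lower with DES, against 52.7% of all genes tested (28.9% higher and 23.9% lower). The genes that rose were Bub1b, Kif23, Cenpe, Mcm3, Mcm4, Rrm1, Kif20a, Cenpf and Mki67, and those that fell were Rrm2 and Cdc6. The 2 groups did not overlap for 9 of 45 members, against 66.7% of all genes. The median log2 change of the members was 0.18, against −0.01 over all genes, and the median size of change was 0.31 against 0.59. Single samples moved the members' median, to 0.088 without WT-veh sample 2, 0.11 without WT-DES sample 4 and 0.29 without WT-DES sample 1 or without WT-veh sample 4. Log2 changes are on the log2(FPKM + 1) scale, which understates those of low genes. How the libraries are scaled decided the balance of directions. When totals without the 20 most abundant genes were set equal, 27 members were higher and 0 lower. After quantile normalization 3 were higher and 8 lower. Median-ratio scaling, by the median ratio of genes to their means over all samples, used factors of 0.994 to 1.019. It gave 9 higher and 2 lower, as deposited, with 52.7% of all genes called. With equal totals the median of all genes moved to 0.38 and that of the members to 0.56, and 54.2% of all genes were called, 6953 of 16198 higher. After quantile normalization these medians were −0.08 and −0.13, and 48.4% of all genes were called. Bub1b, Mcm3 and Rrm1 were higher and called both with equal totals and after quantile normalization.

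Among the licensing genes, 2 of 9 rose and 1 fell. The MCM helicase is a ring of 6 different subunits, and its members did not move together. Mcm3 was at 5.66, 7.15, 6.4 and 9.59 FPKM in WT-veh samples 1 to 4, the order used throughout, and at 9.92, 12.6, 13.3 and 12.6 in WT-DES, 1.68-fold higher (log2 change 0.69 ± 0.20, SE, adjusted p = 0.00501). Every WT-DES sample lay above every WT-veh sample. Mcm2 was at 14, 15.8, 16.3 and 17.6 FPKM in WT-veh and at 10.4, 10.2, 12.2 and 11 in WT-DES (log2 change −0.50 ± 0.14, SE, adjusted p = 0.00403). Every WT-DES sample lay below every WT-veh sample, but the ratio of means, 0.688, fell short of 1.5-fold. Mcm4 rose by 0.64 ± 0.14 on the log2 scale (adjusted p = 0.000778), and the change of Mcm7 was 0.48 ± 0.14 (adjusted p = 0.00538) with a ratio of 1.45, under the fold limit. Mcm5 and Mcm6, with changes of 0.31 ± 0.23 and 0.18 ± 0.17, did not pass. Cdc6, which helps to load the helicase, fell from 1.45, 1.65, 2.01 and 2.46 FPKM in WT-veh to 1.22, 1.01, 1.3 and 1.28 in WT-DES, with no overlap (log2 change −0.38 ± 0.16, SE, adjusted p = 0.0418). Cdt1, its partner in loading, and Cdc45, part of the active helicase, changed by 0.32 ± 0.17 and 0.02 ± 0.22 and did not pass.

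The unequal change of subunits can be read within each sample as a ratio of FPKM, which multiplying a whole sample by 1 factor cannot alter. The ratio of Mcm3 to Mcm2 lay between 0.393 and 0.545 in vehicle-treated WT samples and between 0.958 and 1.24 after DES, and that of Mcm4 to Mcm2 between 0.414 and 0.481 and between 0.996 and 1.19. In αERKO the Mcm3 to Mcm2 ratio lay between 0.407 and 0.585 with vehicle and between 0.457 and 0.574 with DES, which overlap, and that of Mcm4 to Mcm2 between 0.563 and 0.596 with vehicle and between 0.449 and 0.555 with DES, which do not. In WT, 9 of the 16 ratios among MCM subunits and of Rrm1 to Rrm2 did not overlap between DES and vehicle, against 3 of 16 in αERKO, all 3 among MCM subunits. Of single genes, 66.7% and 13.0% did not overlap in these comparisons. The ratios share subunits, and 5 of the 9 hold Mcm2. Over these 32 comparisons the exact two-sided permutation test gave at least p = 0.0286, the smallest that 4 against 4 samples allow, and 0.0762 after Benjamini-Hochberg adjustment, so none passed. The ratios were chosen after the values had been seen.

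**Figure D2:**
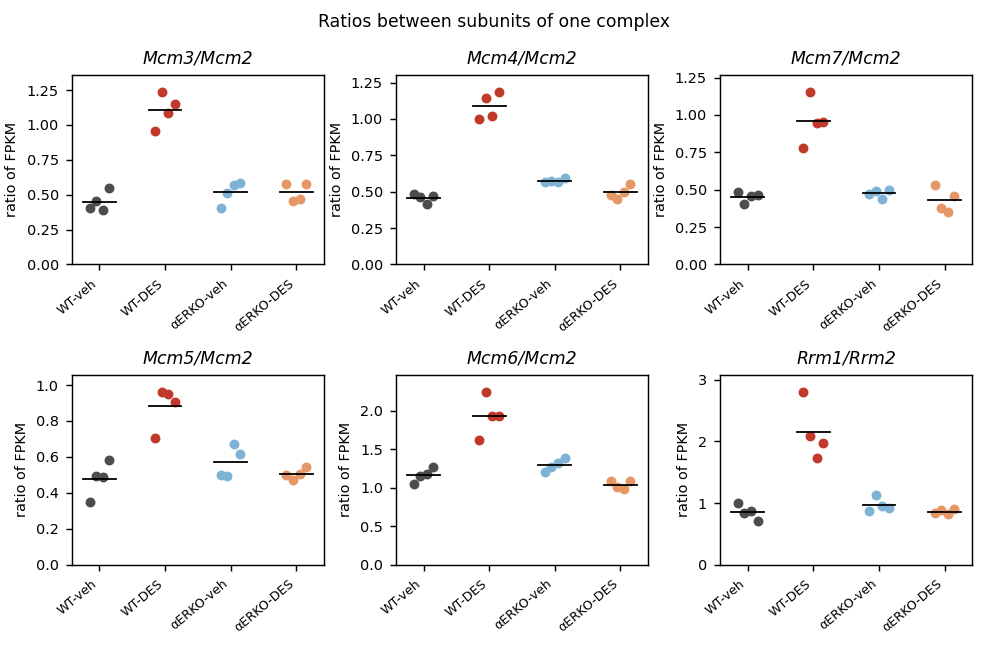
Ratios of FPKM between subunits within each sample, with points for the 4 samples of each group and a line at their mean. The 4 WT-DES samples lie above the other 3 groups in each of the 6 panels; for Mcm3 to Mcm2 they reach 0.958 to 1.24 while the WT-veh samples lie at 0.393 to 0.545.

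Ribonucleotide reductase, which makes the deoxynucleotides for DNA, also had subunits whose changes had opposite signs. Rrm1, the large subunit, was at 9.07, 10.04, 10.2 and 10.8 FPKM in WT-veh and at 15.9, 15.9, 15 and 17.1 in WT-DES (log2 change 0.62 ± 0.12, SE, adjusted p = 0.000291), with no overlap. Rrm2, the small subunit, was at 9.03, 12.1, 11.7 and 15.2 FPKM in WT-veh and 5.7, 7.6, 8.66 and 8.64 in WT-DES, again with no overlap and in the opposite direction (log2 change −0.58 ± 0.18, SE, adjusted p = 0.00935). With the length correction the changes were 0.37 for Rrm1 and −0.40 for Rrm2, and neither was called. The ratio of Rrm1 to Rrm2 lay between 0.711 and 1.00 in WT-veh and between 1.73 and 2.80 in WT-DES, and between 0.822 and 1.13 in the 8 αERKO samples. Thymidylate synthase (Tyms) passed the p limit with a change of −0.43 ± 0.18 (adjusted p = 0.0471) but not the fold limit. The replication clamp Pcna changed by −0.28 ± 0.12 (adjusted p = 0.0502) and did not pass.

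**Figure D3:**
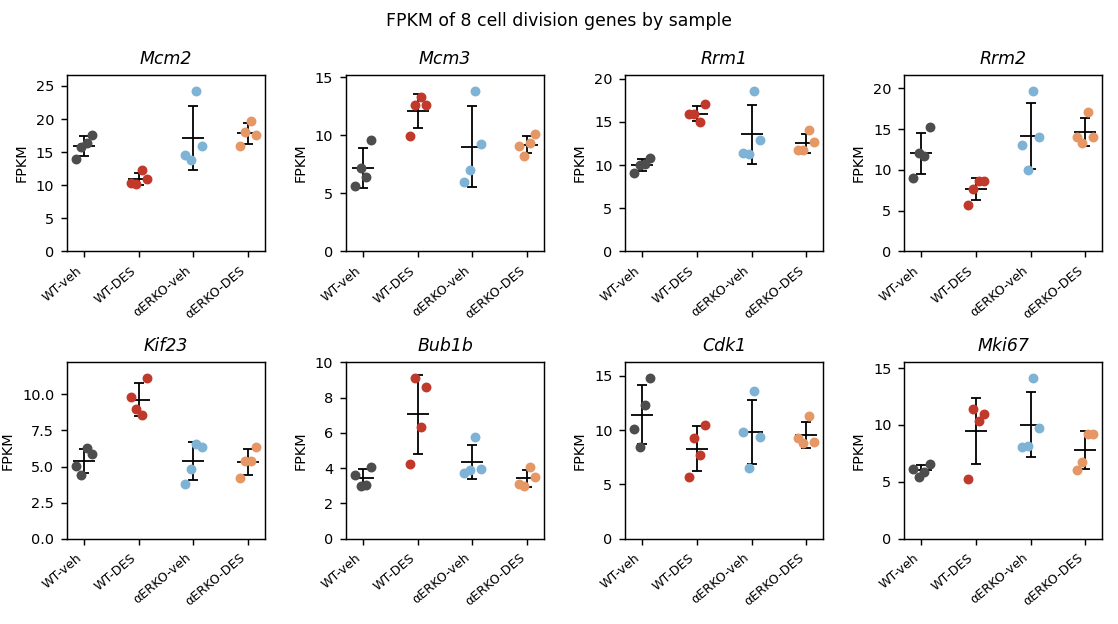
FPKM of 8 members in each sample (points), with the group mean (bar) and SD (error bar, n = 4). Mcm3, Rrm1 and Kif23 are higher in every WT-DES sample than in every WT-veh sample, Mcm2 and Rrm2 are lower, and Mki67 in WT-DES ranges from 5.22 to 11.4.

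None of the 4 genes of entry into S phase was called. E2f1, an activator of S phase genes, was at 3.28, 4.37, 5.36 and 7.74 FPKM in WT-veh and at 7.92, 5.81, 6.35 and 5.75 in WT-DES, with overlap (log2 change 0.31 ± 0.21, SE, adjusted p = 0.204). E2f2, of the same family, was at 3.36, 3.63, 4.08 and 4.9 FPKM in WT-veh and 1.72, 3.02, 3.55 and 2.94 in WT-DES (log2 change −0.41 ± 0.15, SE, adjusted p = 0.0241), which passed the p limit but not the fold limit. The cyclins Ccne1 and Ccne2 changed by 0.30 ± 0.14 and 0.03 ± 0.14 and did not pass. Of the 4 genes, equal totals called 2 higher, quantile normalization 2 lower, and the length correction 1 higher and 1 lower. The factors that switch on late genes did not pass either, though equal totals called both higher: Foxm1 was at 2.35, 2.7, 3.2 and 3.77 FPKM in WT-veh and 2.96, 4.47, 4.05 and 4.53 in WT-DES (log2 change 0.32 ± 0.18, SE, adjusted p = 0.128), and Mybl2, which encodes B-Myb, at 0.76, 0.81, 0.78 and 1.01 FPKM in WT-veh and 0.94, 0.84, 1.14 and 1.09 in WT-DES (log2 change 0.12 ± 0.11, SE, adjusted p = 0.322).

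Of the 8 cyclins and kinases of G2 and M phase, none was called. Cdk1, the main mitotic kinase, was at 10.1, 8.46, 12.3 and 14.8 FPKM in WT-veh and 5.7, 9.31, 7.7 and 10.5 in WT-DES, with overlap (log2 change −0.42 ± 0.21, SE, adjusted p = 0.0767). Its partner Ccnb1 was at 1.8, 0.79, 1.29 and 2.31 FPKM in WT-veh and 0.79, 1.87, 1.89 and 2.18 in WT-DES (log2 change 0.08 ± 0.24, SE, adjusted p = 0.777), so that the 2 groups covered much the same range. Ccnb2, the other B cyclin, was at 8.95, 5.37, 9.38 and 12.3 FPKM in WT-veh and 5.59, 15.9, 11 and 13.5 in WT-DES (log2 change 0.29 ± 0.26, SE, adjusted p = 0.333). WT-DES sample 1 was the lowest of its group for all 3. Aurka, a kinase of the spindle poles, changed by −0.37 ± 0.17 (adjusted p = 0.0646), and Ccna2, Aurkb, Plk1 and Melk by 0.11 to 0.27 with adjusted p from 0.294 to 0.629.

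In the spindle checkpoint, which holds anaphase until chromosomes are attached, 1 of 6 genes was called. Bub1b, which encodes BubR1, was at 3.63, 2.99, 3.07 and 4.05 FPKM in WT-veh and 4.22, 9.12, 6.34 and 8.58 in WT-DES (log2 change 0.82 ± 0.18, SE, adjusted p = 0.000872), the largest change among the members on the log2(FPKM + 1) scale; by the ratio of mean FPKM, 2.42 for Cenpe was larger than 2.06 for Bub1b. All WT-DES samples lay above the WT-veh samples, sample 1 only just so. Ube2c, the ubiquitin-conjugating enzyme that works with the anaphase-promoting complex, was at 23.9, 17.4, 24.8 and 37.1 FPKM in WT-veh and 13.1, 22.2, 18.4 and 21.9 in WT-DES (log2 change −0.41 ± 0.27, SE, adjusted p = 0.19). Its groups overlapped. Bub1, Mad2l1, Ttk and Cdc20 changed by −0.19 to 0.29 and did not pass.

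Of the 6 genes of chromosomes and centromeres, 3 rose, and 0 were called after quantile normalization or after a correction for transcript length. Cenpe, a kinetochore motor, was at 1.02, 0.65, 0.92 and 1.04 FPKM in WT-veh and 1.21, 2.82, 2.29 and 2.48 in WT-DES (log2 change 0.72 ± 0.15, SE, adjusted p = 0.000579), with no overlap. Mki67, the widely used marker of proliferation, was at 6.09, 5.44, 5.88 and 6.59 FPKM in WT-veh and 5.22, 11.4, 10.3 and 11 in WT-DES (log2 change 0.53 ± 0.21, SE, adjusted p = 0.0344). Its rise rested on samples 2 to 4, since WT-DES sample 1 lay below every WT-veh sample. Cenpf, a kinetochore protein, rose as well (0.57 ± 0.18, adjusted p = 0.00969), with sample 1 again inside the WT-veh range. Top2a, the DNA topoisomerase of mitotic chromosomes, was at 10.8, 11, 11.2 and 13.1 FPKM in WT-veh and 8.67, 16.1, 13.9 and 16.6 in WT-DES and did not pass (log2 change 0.21 ± 0.20, SE, adjusted p = 0.356). Birc5, which encodes survivin, was at 10.5, 9.07, 17.4 and 20.4 FPKM in WT-veh and 7.11, 14.4, 14.2 and 14.7 in WT-DES (log2 change −0.15 ± 0.29, SE, adjusted p = 0.648), and Cenpa, the centromeric histone, changed by 0.13 ± 0.26. With the length correction the log2 changes were 0.04 for Mki67 (adjusted p = 0.886), 0.05 for Cenpf (adjusted p = 0.84) and 0.30 for Cenpe.

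Of the 6 genes of the spindle and cytokinesis, 2 rose. Kif23, a motor of the central spindle, was at 5.02, 4.44, 6.25 and 5.88 FPKM in WT-veh and 9.81, 9, 8.54 and 11.1 in WT-DES (log2 change 0.73 ± 0.15, SE, adjusted p = 0.000451), with no overlap and WT-DES sample 1 among the high samples. Kif20a, another motor of the central spindle, rose by 0.58 ± 0.18 (adjusted p = 0.0110), with overlap. Kif11 had a ratio of 1.51 but an adjusted p of 0.0738. Nusap1, a spindle protein, was at 4.16, 3.61, 5.35 and 6.54 FPKM in WT-veh and 3.14, 6.41, 4.58 and 6.37 in WT-DES (log2 change 0.04 ± 0.21, SE, adjusted p = 0.885), and Tpx2 and Prc1 changed by 0.31 ± 0.20 and 0.16 ± 0.20.

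**Figure D4:**
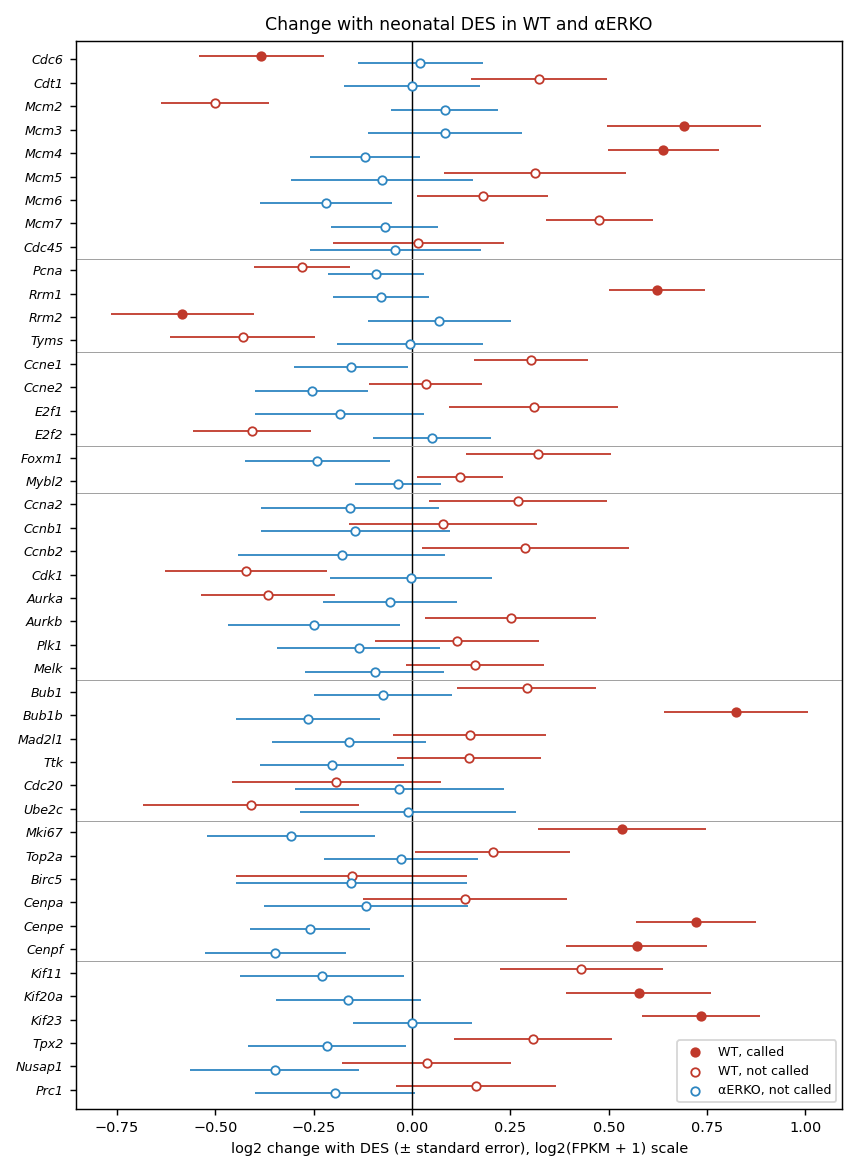
Log2 change with DES in WT (red) and αERKO (blue), with the standard error, for the 45 members in order of role; filled points were called. In WT 9 genes are filled to the right and 2 to the left, and in αERKO none is filled.

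Leaving out WT-DES sample 1 moved the counts. Without it 11 members were higher and 0 lower in WT-DES, with 54.2% of all genes called. Kif11 and Mcm7 were added to the 9 genes that rose, and Rrm2 and Cdc6 were no longer called, with log2 changes of −0.47 and −0.39. Without WT-veh sample 4 there were also 11 higher and 0 lower, with 51.8% of all genes called. Of the 11 calls, those of Kif23, Cenpe, Mcm4, Kif20a, Cenpf and Mki67 were lost after quantile normalization, those of Cenpe, Cenpf, Mki67, Rrm1 and Rrm2 after a correction for transcript length, and those of Rrm2 and Cdc6 with equal totals. Bub1b and Mcm3 were called under each of these. Other members gained a call. The length correction added Mcm7, Ccne1 and Ccnb2 as higher and Cdk1 and E2f2 as lower. Of the 8 cyclins and kinases of G2 and M phase, equal totals called 4 higher and quantile normalization 2 lower.

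Markers of other cells moved with DES in WT alongside the members. All 15 leukocyte markers tested were called higher in WT-DES, with a median log2 change of 2.10 and mean levels of 1.88 to 2.31 in WT-veh and 3.52 to 4.73 in WT-DES. The 6 fibroblast and the 5 endothelial markers all rose too, by medians of 1.33 and 1.34, as did 4 of 5 adipose markers and 2 of 4 basal epithelial markers, with medians of 1.80 and 0.85 over their lists. The 9 SV secretion genes fell, with a median of −3.79, and so did 2 of 10 skeletal muscle markers, with a median of −0.93 over the list. Of the smooth muscle markers 5 of 6 fell, with a median of −1.30 over the list, but 0 were called after quantile normalization (median −0.50). Of the 6 epithelial markers 1 rose and 3 fell, against 2 higher and 0 lower after quantile normalization, and no leukocyte marker was at 0 in any WT sample. The part of these markers in the members' changes was not tested.

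In αERKO mice DES called none of the 45 members, against 1.49% of all genes tested (0.0876% higher and 1.41% lower), and none had an unadjusted p of at most 0.05. With sample weights, which favoured αERKO-veh sample 4 (11.8, against 0.513 to 0.642 for the others of its group), 1 was called, against 7% of all genes. This was Cenpf, which had the smallest adjusted p without weights, 0.237 (log2 change −0.35 ± 0.18). The median change was −0.12 against 0.02 over all genes, and 38 of the 45 changes were below 0, but without αERKO-veh sample 3 the median turned to 0.038. Bub1b, Kif23, Rrm1 and Rrm2, called in WT, and Mcm2, which fell short of the fold limit there, can be read sample by sample. Bub1b was at 3.72, 3.91, 5.76 and 3.97 FPKM in αERKO-veh and at 3.09, 3, 4.09 and 3.48 in αERKO-DES, and Kif23 at 3.79, 4.81, 6.56 and 6.38 FPKM with vehicle and 4.19, 5.36, 5.41 and 6.35 with DES. Both sets of samples overlapped. Rrm1 was at 11.4, 11.3, 18.6 and 12.9 FPKM with vehicle and 11.7, 11.8, 14.1 and 12.6 with DES, and Rrm2 at 13.1, 9.98, 19.7 and 14 FPKM with vehicle and 14, 13.3, 17.1 and 14 with DES. Neither subunit separated the groups. Mcm2 was at 14.6, 13.8, 24.3 and 15.9 FPKM with vehicle and 15.9, 18.1, 19.8 and 17.6 with DES, again with overlap. The 2 groups did not overlap for 1 member, Cenpf, against 13.0% of all genes. Of the markers of other cells, 6 of 10 for skeletal muscle, 3 of 5 for adipose tissue, 1 of 6 for fibroblasts and 1 of 5 for endothelium were called lower in this comparison, and their part was not tested.

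Without DES, αERKO differed from WT in 1 member (2.22%, against 7.12% of all genes, 4.50% higher and 2.63% lower): Mki67 was at 8.07, 8.16, 14.1 and 9.69 FPKM in αERKO-veh and at 6.09, 5.44, 5.88 and 6.59 in WT-veh (log2 change 0.62 ± 0.21, adjusted p = 0.0437), with no overlap. With the length correction the change was 0.28 (adjusted p = 0.447). The gene was also no longer called without any 1 of 9 samples, αERKO-veh sample 3 among them, and without that sample the median change of the members went from 0.14 to −0.03. The groups did not overlap for 2 members, against 29.7% of all genes. Rrm1, which was also higher without overlap (0.38 ± 0.12, adjusted p = 0.0349), had a ratio of 1.35, under the fold limit. Of the markers of other cells, 4 of 10 for skeletal muscle (median log2 change 2.23 over the list) and 2 of 5 for endothelium were called higher in αERKO-veh, and their part was not tested. αERKO-DES relative to WT-veh called 0 members, against 3.18% of all genes (1.21% higher and 1.97% lower), with 2 at no overlap, against 21.0% of all genes, and 2 at an unadjusted p of at most 0.05.

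αERKO-DES relative to WT-DES called 10 members (22.2%, against 53.4% of all genes, 23.7% higher and 29.6% lower), 3 higher and 7 lower, and 10 did not overlap, against 66.5%. This comparison and the one between the WT groups share the WT-DES samples. Cdc6, Mcm2 and Rrm2 were higher in αERKO-DES, by 0.76, 0.65 and 0.86 on the log2 scale, and Bub1b, Kif23, Cenpe, Cenpf, Kif20a, Cenpa and E2f1 were lower, with changes of −0.83 to −0.50, while after quantile normalization 9 were higher and 0 lower, with 50.3% of all genes called, and with equal totals 1 was higher and 26 lower, with 53.2%. Without WT-DES sample 1, 16 were called, 3 higher and 13 lower, with 55.5% of all genes called. Markers of other cells moved in this comparison too. All 15 leukocyte markers (median log2 change −2.46), 6 of 6 fibroblast markers (−1.79), 5 of 5 endothelial markers (−1.15) and 5 of 5 adipose markers (−4.73) were lower in αERKO-DES, and 9 of 9 SV secretion genes (3.54) and 5 of 6 smooth muscle markers (1.28) were higher. Of 6 epithelial markers 4 were higher and 1 lower (0.62), 3 of 4 basal epithelial markers were lower (−0.81) and 1 of 10 skeletal muscle markers was higher (−0.22 over the list). The test of whether the change with DES differed between genotypes called 9 members (20%, against 56.4% of all genes, 29.6% positive and 26.9% negative). The difference, WT minus αERKO, was positive for 8, from Bub1b (1.09 ± 0.26, adjusted p = 0.00163) to Rrm1 (0.70 ± 0.17, adjusted p = 0.00202), and negative for Rrm2 (−0.65 ± 0.26, adjusted p = 0.0335). Mki67 was among the 8 (0.84 ± 0.30, adjusted p = 0.0213), with DES changes of 0.53 in WT and −0.31 in αERKO. After the correction for transcript length the difference was 0.18 for Mki67, 0.21 for Cenpf, 0.42 for Cenpe, 0.37 for Rrm1 and −0.41 for Rrm2, and none of these was called, while 11 members were, 8 positive and 3 negative, with 52.4% of all genes. Without WT-DES sample 1 the count was 14, all positive, with 58.3% of all genes called, and after quantile normalization 1 was positive and 5 negative, with 49.6%. With equal totals 30 were positive and 0 negative, with 57.1% of all genes called. Sample weights gave 19 calls, 18 positive and 1 negative, with 59.8% of all genes called. The interaction also called 14 of 15 leukocyte, 6 of 6 fibroblast, 5 of 5 endothelial, 5 of 5 adipose, 5 of 6 smooth muscle, 5 of 6 epithelial, 3 of 4 basal epithelial, 6 of 10 skeletal muscle and 9 of 9 SV secretion markers, and the part of other cells in these differences was not tested.

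**Figure D5:**
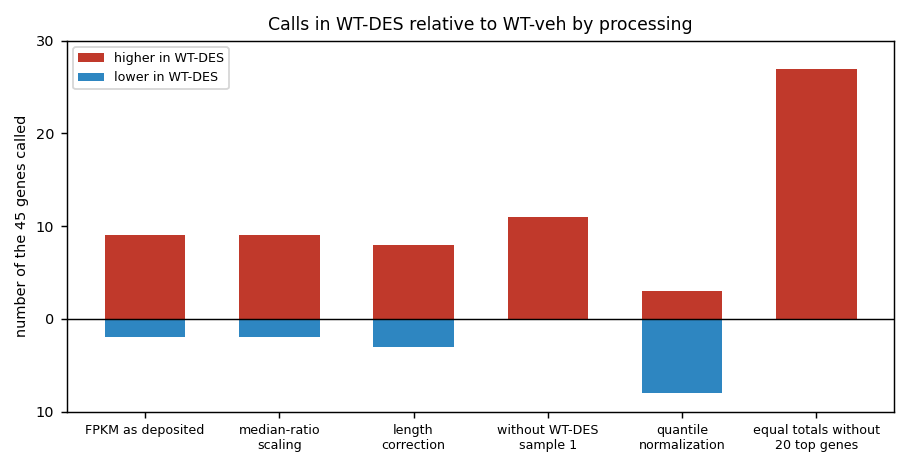
Number of the 45 members called higher (up) or lower (down) in WT-DES relative to WT-veh, by how the values were processed. The deposited FPKM gave 9 higher and 2 lower, quantile normalization 3 and 8, and equal totals without the 20 most abundant genes 27 and 0.

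Other genes of the cycle, from lists fixed with the members, moved in both directions in WT. Of 50 other replication genes tested, 5 rose and 7 fell (24%), of 74 other mitosis genes 22 rose and 4 fell (35.1%), and of 24 genes of G1 cyclins, their kinases and Rb and DREAM proteins 5 rose and 3 fell (33.3%), each below the 52.7% of all genes called. The balance of directions moved with the scaling, as it did over all genes. With equal totals, where 6953 of 16198 genes were higher and 1831 lower, the replication list had 18 higher and 2 lower, the mitosis list 40 and 2 and the G1 list 11 and 2, and after quantile normalization, where 3671 of 15717 genes were higher and 3935 lower, they had 1 higher and 15 lower, 3 and 22, and 1 and 4. Of the genes named below, the falls of Cks1b, Cdc25a, Ccnd1, Myc and Pold2 and the rises of Ccnd2, Lmnb1 and Orc3 held under both. Cks1b, a small partner of cyclin-dependent kinases, fell from 84.3 ± 12.1 to 29.1 ± 6.33 FPKM (mean ± SD, n = 4), and Cdc25a, the phosphatase that activates them, from 22.3 ± 0.836 to 9.38 ± 1.03 (log2 changes of −1.52 and −1.17). Among the D cyclins, Ccnd1 and Ccnd2 went opposite ways, Ccnd1 from 174 ± 13.3 to 69.3 ± 10.2 and Ccnd2 from 15.4 ± 2.33 to 37.3 ± 3.76 FPKM (log2 changes of −1.33 ± 0.11, adjusted p = 7.13e-08, and 1.23 ± 0.13, adjusted p = 7.13e-07). Myc fell from 55.4 ± 10.3 to 23.6 ± 3.62 FPKM (−1.19 ± 0.12), and Pold2, a subunit of DNA polymerase δ, from 43.3 ± 4.65 to 20.9 ± 0.839 (−1.01 ± 0.11). Lmnb1, the nuclear lamin, rose from 6.75 ± 0.709 to 16.4 ± 1.48 FPKM (1.17 ± 0.12). Timeless, Orc3, Ncapg2, Cdk6 and Rb1 also rose, by 0.59 to 0.85, and Mcm10, Cenpm and Lin37 fell, by 0.76, 0.68 and 0.71. Of these, Timeless, Ncapg2, Cdk6 and Rb1 were not called after quantile normalization, nor Mcm10, Cenpm and Lin37 with equal totals, nor Cdk6, Rb1, Cenpm and Lin37 after the length correction. DES called none of the tested genes of these lists in αERKO mice.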

How the data were processed

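RNA-seq of SV RNA in 16 samples was analysed. Per the methods and the submitters' processing notes, the authors filtered paired-end reads by quality, aligned them to mm10 with TopHat 2.0.4 and computed the deposited FPKM values per gene with Cufflinks 2.0.2. The gene annotation and any scaling between libraries are not given in the sources used here. Depth is unknown from FPKM, so precision rests on the 4 samples of a group.

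For genes whose mean passed 1 FPKM in some group, log2(FPKM + 1) was modelled with limma 3.58.1 (R 4.3.3), using 1 fit of all 16 samples, a mean for each group and a variance that follows expression; p-values were adjusted by Benjamini-Hochberg across all 15988 genes. The limits on p, fold and level follow the study's methods, which used Cuffdiff. The script was tested on simulated data. Per-sample values are given for Mki67, Top2a, Mcm2, Ccnb1, Cdk1 and Foxm1, for the members with the largest and the smallest change of each role, and for members called in comparisons with fewer than 5 calls; the other lists give the 3 largest rises and falls, of which some are not reported here. The members and lists were chosen with earlier results of these data known. Alternatives were other pseudocounts, FPKM minima, fold and p rules, models, sample weights, scalings, a length correction, a replicate block and leaving out each sample. Transcript lengths came from the GENCODE annotation. Promoters came from RefSeq (GRCm38.p6), searched in Python 3.11.15.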

Additional observations from a re-analysis of the deposited data

Results flagged for a closer look

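Of 180 groups of 4 samples, 1 for each member and group, 9 held a sample far from the other 3 (Dixon's test), where chance alone flags about 1 in 20 groups. αERKO-veh sample 3 stood high for Cdc45 (8.31 FPKM, others 3.6 to 4.05), Ccne1 (3.26, others 1.95 to 2.10), Bub1b (5.76, others 3.72 to 3.97) and Ttk (2.65, others 1.30 to 1.48). αERKO-DES sample 3 stood high for Rrm2 (17.1 FPKM, others 13.4 to 14.0) and Ccnb2 (8.04, others 6.64 to 6.85), and WT-veh sample 4 for Top2a (13.1, others 10.8 to 11.2). WT-DES sample 1 stood low for Ttk (0.96 FPKM, others 1.84 to 1.98) and Birc5 (7.11, others 14.2 to 14.7).

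The change with DES differed between WT and αERKO, by the interaction term in limma, for 9 of 45 members (20%), against 56.4% of all genes tested. On the log2 scale the difference, WT minus αERKO, was 1.09 for Bub1b, 0.98 for Cenpe, 0.92 for Cenpf, 0.84 for Mki67, 0.76 for Mcm4, 0.74 for Kif20a, 0.73 for Kif23, 0.70 for Rrm1 and −0.65 for Rrm2. These differences rest on the deposited scaling of the libraries, and the balance of their directions turned under quantile normalization (1 positive, 5 negative), while with equal totals without the 20 most abundant genes 30 were positive and 0 negative, against 57.1% of all genes called. With a correction for transcript length they were 0.18 for Mki67, 0.21 for Cenpf, 0.42 for Cenpe, 0.37 for Rrm1 and −0.41 for Rrm2, none of them called.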

How the results depend on the processing

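The number of members called depended most on how libraries were scaled. Median-ratio scaling left it unchanged in every comparison. After quantile normalization WT-DES relative to WT-veh had 11 calls (3 higher, 8 lower), αERKO-DES relative to WT-DES 9 (9 higher, 0 lower), the interaction 6 (1 positive, 5 negative) and αERKO-veh relative to WT-veh 0. Of all genes, 48.4%, 50.3%, 49.6% and 5.45% were called in these comparisons, in that order. Cenpf in αERKO-DES relative to WT-DES turned to a log2 change of 0.053 under this scaling. With equal totals without the 20 most abundant genes the counts were 27 (27 higher), 27 (1 higher, 26 lower), 30 (30 positive) and 4 (4 higher) for WT-DES against WT-veh, the DES groups, the interaction and αERKO-veh against WT-veh, where 54.2%, 53.2%, 57.1% and 9.71% of all genes were called. The αERKO-veh count also fell to 0 with no minimum on FPKM, with an adjusted p of at most 0.01 and with the length correction. Of all genes, 5.21%, 2.51% and 3.02% were called there. With the fold taken from the log2 difference WT-DES relative to WT-veh had 6 calls, with 48.2% of all genes called. With sample weights the interaction had 19, with 59.8% of all genes, and αERKO-DES relative to αERKO-veh 1, with 7%. These weights were 11.8 for αERKO-veh sample 4, 0.513 to 0.642 for the others of its group and 0.149 for WT-DES sample 1.

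Leaving out each sample in turn gave 9 to 12 calls in WT-DES relative to WT-veh, 0 to 1 in αERKO-veh relative to WT-veh, 7 to 16 between the DES groups (16 without WT-DES sample 1), 8 to 14 for the interaction (14 without that sample), and 0 to 0 in the other 2 comparisons. Of all genes, 51.2% to 54.2%, 2.62% to 10.6%, 52.1% to 55.5% and 54.1% to 58.3% were called in the first 4 of these, in that order. The call of Mki67 in αERKO-veh was lost without any 1 of WT-veh samples 1 to 4, αERKO-veh samples 2, 3 and 4, WT-DES sample 3 or αERKO-DES sample 2. Bub1b and Mcm3 in WT kept their direction and call in all 29 alternatives run, and Cdc6 its call in 16 of 28.

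A model with the replicate number as a block gave 12 calls in WT-DES relative to WT-veh, 10 between the DES groups and 11 for the interaction, where 52.6%, 53.3% and 56.2% of all genes were called. The other counts were as before. Deviations of same-numbered samples correlated at −0.21 to 0.28, so the numbers were not taken as pairs. Depth limits are unknown from FPKM.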

Other observations

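The relation of transcript length to the members' changes differed in sign between comparisons. Spearman's rho between the longest annotated transcript and the log2 change over the 45 members was 0.31 for DES in WT, 0.41 for αERKO-veh and 0.30 for αERKO-DES against WT-veh, 0.32 for the interaction, −0.21 for DES in αERKO and −0.17 for αERKO-DES against WT-DES; these are descriptions across genes of the same samples. After a correction for length the log2 changes with DES in WT were 0.04 for Mki67 and 0.05 for Cenpf, and 0.78 for Bub1b, 0.73 for Kif23 and 0.68 for Mcm3.

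Of the other lists, Anln, a cytokinesis protein, was higher in αERKO-veh than in WT-veh (log2 change 0.68, limma adjusted p = 0.0173) and Myc lower (−0.57, adjusted p = 0.00739). Mcm8 (0.40, adjusted p = 0.0344) and Rb1 (0.52, adjusted p = 0.00593) were higher in αERKO-DES than in WT-veh.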
